A study of Mus musculus with 8 samples.

Results

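Dopamine and noradrenaline act on families of G protein-coupled receptors, and the genes of 10 such receptors were looked up in cortex and hippocampus arrays: Drd1, Drd2, Drd4, Drd5, Adra1a, Adra1b, Adra1d, Adra2a, Adra2c and Adrb1. Each gene was found by the symbol that the platform annotation pairs with a probe set. Of the 10 genes, 6 had 1 probe set each among 22206, namely the dopamine receptors Drd1, Drd2, Drd4 and Drd5 (4 genes) and the adrenergic receptors Adra1b and Adra2c (2 genes). Adra1a, Adra1d, Adra2a and Adrb1 were not paired with a probe set, and these 4 genes were not analysed here. The clearest differences were between the tissues: Drd5 and Adra2c were higher in hippocampus, and Adra1b was higher in cortex.

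The study measured RNA on 8 Affymetrix arrays from male mice 12 weeks of age, with 2 arrays in each of 4 groups. Control mice received a vehicle with 1% DMSO for 2 weeks, and their cerebral cortex and hippocampus form the groups called cortex control and hippocampus control. Exposed mice received clothianidin (CLO), an insecticide of the neonicotinoid class, which act on nicotinic acetylcholine receptors, at 50 mg/kg/day for 2 weeks, and give the groups cortex exposed and hippocampus exposed. The sample labels used here give no DMSO content for the exposed mice. The dose is described by the submitters as a no observed adverse effect level. An array is called by its group and by its label's number (1 and 6 for control mice, 3 and 6 for exposed mice). No strain can be given, because that field names the sex. Nothing in the labels states whether both arrays of a group are different animals, and p-values therefore reflect the spread between these samples only, part or all of which may be technical.

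The receptors differ in the G proteins they use. The D1-like receptors encoded by Drd1 and Drd5 couple to stimulatory G proteins and raise cyclic AMP, whereas the D2-like receptors encoded by Drd2 and Drd4 couple to inhibitory G proteins and lower it. Among the adrenergic receptors, α1 types such as the product of Adra1b activate phospholipase C through Gq, α2 types such as the product of Adra2c inhibit adenylyl cyclase, and β types stimulate it. Dopamine reaches cortex and hippocampus mainly from the midbrain and noradrenaline from the locus coeruleus. The RNA of the enzymes that make these transmitters therefore lies largely in cell bodies outside both tissues, and enzyme protein was not measured.

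The sequence upstream of the start of Drd5, Adra2c and Adra1b is shown because these 3 genes had the most firmly supported tissue differences. The sequences are the 250 bases before each start annotated by RefSeq on GRCm38.p6, printed 5′ to 3′ on the gene's strand, and all 3 genes matched by symbol. Capitals mark motif matches on either strand. The motifs searched were a basal promoter element spelled TATAAA, the box that is named after its letters CCAAT, the Sp1-type box with letters GGGCGG, and the core of a cyclic AMP response element spelled TGACG. Drd5 lies on the plus strand at chr5:38319259-38319508, Adra2c on the plus strand at chr5:35278316-35278565. Adra1b has 2 annotated starts on the minus strand, the upstream one at chr11:43901238-43901487 and the downstream one at chr11:43836490-43836739, and the arrays do not show which is used.
Drd5: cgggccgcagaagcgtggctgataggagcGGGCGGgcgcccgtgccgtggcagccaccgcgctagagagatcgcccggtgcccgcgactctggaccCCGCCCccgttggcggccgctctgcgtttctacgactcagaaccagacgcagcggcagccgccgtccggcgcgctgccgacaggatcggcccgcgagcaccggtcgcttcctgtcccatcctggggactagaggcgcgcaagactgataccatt
Adra2c: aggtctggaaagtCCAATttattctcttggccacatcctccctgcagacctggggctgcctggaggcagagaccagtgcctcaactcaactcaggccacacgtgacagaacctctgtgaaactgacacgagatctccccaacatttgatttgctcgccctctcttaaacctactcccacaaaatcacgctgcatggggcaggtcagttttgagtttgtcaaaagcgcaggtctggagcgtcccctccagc
Adra1b, upstream start: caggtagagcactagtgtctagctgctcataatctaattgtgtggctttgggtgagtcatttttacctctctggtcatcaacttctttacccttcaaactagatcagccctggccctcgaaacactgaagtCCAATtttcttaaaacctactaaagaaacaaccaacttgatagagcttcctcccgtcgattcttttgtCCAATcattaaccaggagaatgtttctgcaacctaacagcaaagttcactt
Adra1b, downstream start: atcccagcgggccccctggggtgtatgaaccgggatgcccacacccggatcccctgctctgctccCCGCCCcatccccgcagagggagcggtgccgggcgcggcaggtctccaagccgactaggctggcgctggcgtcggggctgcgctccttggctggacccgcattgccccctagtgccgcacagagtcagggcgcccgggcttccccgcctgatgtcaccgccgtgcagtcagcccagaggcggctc

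The Drd5 window had a G+C content of 71.2% with 35 CpG dinucleotides and 2 matches to GGGCGG. The Adra2c window had 53.6% G+C, 6 CpG dinucleotides and 1 match to CCAAT. For Adra1b, the upstream window had 41.6% G+C, 3 CpG dinucleotides and 2 matches to CCAAT, and the downstream window had 72.8% G+C, 22 CpG dinucleotides and 1 match to GGGCGG. The windows of Drd5 and Adra2c, both higher in hippocampus, shared no searched motif. None of these windows held the basal element or the response element core, and no matches overlapped. Among 32851 RefSeq windows of the same length, a match to TATAAA was held by 12.4%, one to CCAAT by 33.8%, one to GGGCGG by 32.7% and one to TGACG by 17.8%. A match is a description of the letters and not a binding site.

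All values below are log2 values per probe set, so a difference of 1 is a 2-fold difference, and levels of different genes are not set against each other because probes respond differently. A probe set counted as tested when its mean over the 8 arrays was above 3.937, the limit below which the lowest 33.3% of probe sets lie, and 14804 were tested. All 6 receptor genes passed. Differences were tested with limma over all tested probe sets, with Benjamini-Hochberg adjustment and a threshold of 0.05. Array medians lay between 5.21 and 5.4, and the correlation between both arrays of a group was 0.9867 to 0.9915. The tissue labels held against marker genes: 7 of 7 tested hippocampal neuron markers were higher in hippocampus, and 7 of 9 cortical neuron markers were lower there, with 1 higher. The mean of the cortical neuron markers was 8.82 and 8.76 in hippocampus control and 9.65 and 9.23 in hippocampus exposed. Of the 9 markers, 7 were higher in hippocampus exposed than in hippocampus control, and 1 passed. Their median tissue difference was -3.295 in control and -1.62 in exposed arrays. Its part in the receptor differences of each arm was not tested. Ttr, a gene of choroid plexus epithelium, was at 15.41 in cortex control 6 and at 19.51 in hippocampus control 1, against 4.17 to 7.76 in the other 6 arrays. These 2 arrays were left out in turn and together where a result could rest on them.

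**Figure D1:**
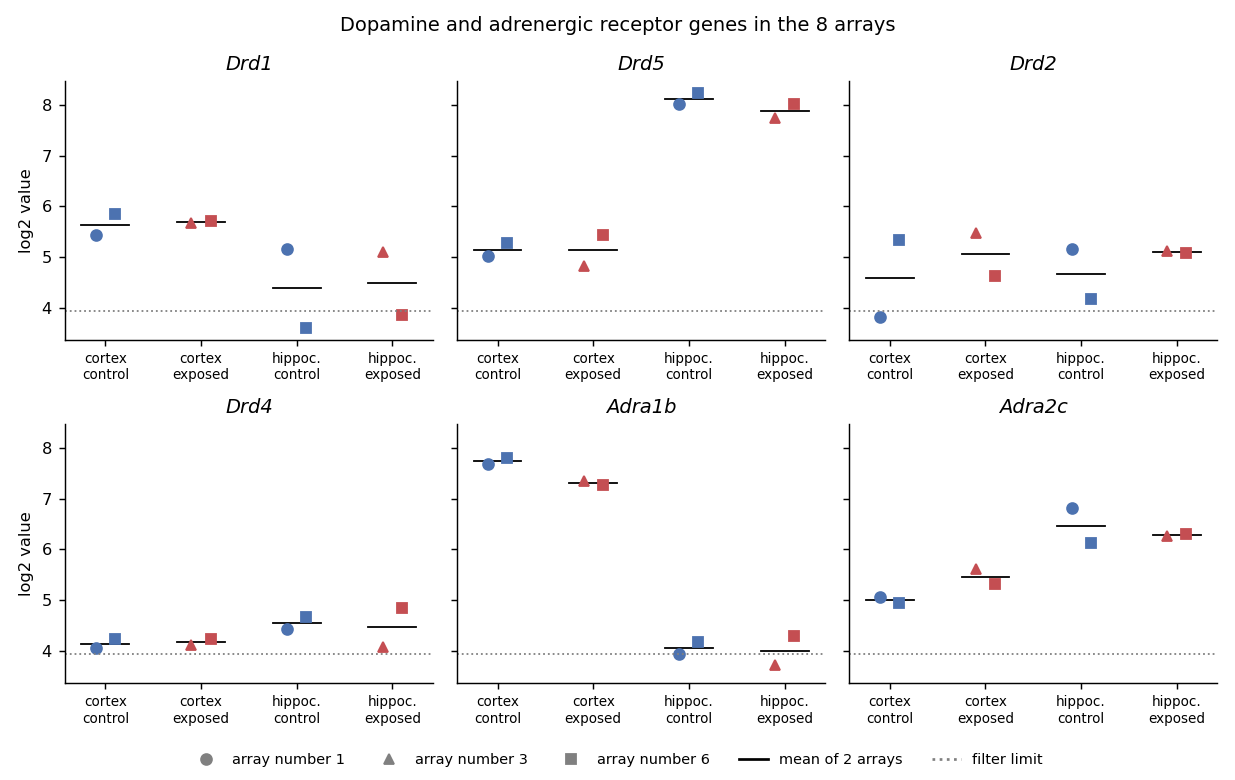
Log2 value of the 6 receptor genes in each of the 8 arrays. The panels share 1 axis, marker shape gives the number in the array's label, blue is control and red is exposed, horizontal lines are means of 2 arrays, and the dotted line is the filter limit of 3.937. Drd5 and Adra1b separate the tissues in opposite directions, with all Drd5 values at or above 7.74 in hippocampus and all Adra1b values at or below 4.29 there, and Drd2 overlaps between all groups.

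Drd5, the D1-like receptor gene, was the dopamine receptor gene with the strongest tissue difference. In cortex it was at 5.01 and 5.28 in the control arrays and at 4.82 and 5.44 in the exposed arrays. In hippocampus it was at 8.01 and 8.24 in the control arrays and at 7.74 and 8.01 in the exposed arrays. Every hippocampus array therefore lay above every cortex array. Exposed and control values overlapped in cortex and met only at 8.01 in hippocampus. The order of the group means was hippocampus control (8.13 ± 0.16, SD, n = 2), hippocampus exposed (7.88 ± 0.19), cortex control (5.15 ± 0.19) and cortex exposed (5.13 ± 0.44). The values of neighbouring groups overlapped or met within a tissue and not between tissues. With both arms averaged, the hippocampus was higher by 2.86 (SE 0.21, 95% interval 2.40 to 3.33), a 7.27-fold difference with an adjusted p = 1.595e-06 in limma. The difference was 2.98 among control arrays (adjusted p = 4.063e-05) and 2.75 among exposed arrays (adjusted p = 1.071e-04).

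Drd1, the other D1-like receptor gene, went the other way. Its cortex values were 5.43 and 5.84 in control arrays and 5.66 and 5.70 in exposed arrays. Its hippocampus values were 5.16 and 3.60 in control arrays (numbers 1 and 6) and 5.10 and 3.85 in exposed arrays (numbers 3 and 6). All 4 hippocampus values were below all 4 cortex values, but they fell into a pair just below the cortex range and a pair under the filter limit, so that the SD was 0.82 over hippocampus and 0.17 over cortex (n = 4 each). The group means ran from 5.68 ± 0.03 in cortex exposed and 5.64 ± 0.29 in cortex control to 4.48 ± 0.88 in hippocampus exposed and 4.38 ± 1.10 in hippocampus control, with no separation between the arms of a tissue. With both arms averaged, the hippocampus was lower by a log2 difference of -1.23 (SE 0.35, 95% interval -2.00 to -0.46), with an adjusted p = 0.01993 in limma, and 2 of the 4 hippocampus values behind it were under the filter limit. Within control arrays (log2 difference -1.26, adjusted p = 0.1071) and within exposed arrays (log2 difference -1.21, adjusted p = 0.1324) the difference did not pass.

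The averaged Drd1 difference passed only narrowly. It no longer did so, with fewer arrays in the fit, without cortex control 6 (log2 difference -1.13, adjusted p = 0.07741), cortex exposed 3 (-1.24, adjusted p = 0.05135), cortex exposed 6 (-1.22, adjusted p = 0.05218), hippocampus control 6 (-0.84, adjusted p = 0.05645) or hippocampus exposed 6 (-0.92, adjusted p = 0.08428). Without hippocampus control 1 the log2 difference in control arrays alone was -2.04 and passed (adjusted p = 0.01353).

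Mean levels of some lists of cell type markers ran alongside Drd1 over the 4 hippocampus arrays. The mean log2 value of 8 GABAergic interneuron markers was 9.99 and 10.06 in hippocampus control 1 and exposed 3, where Drd1 was higher, and 9.22 and 9.69 in control 6 and exposed 6. In cortex the same mean was 10.49 to 10.82. Taken singly, Sst, Pvalb, Npy, Slc32a1 and Lhx6 had this order over the hippocampus arrays, while Gad1, Gad2 and Vip did not. Gad2 was at 11.15 and 11.25 in control 1 and exposed 3, against 11.16 and 11.51 in control 6 and exposed 6. Of these 8 markers, Vip (log2 difference -2.37), Npy (-1.77), Pvalb (-1.64) and Sst (-1.52) were lower in hippocampus and Gad2 was higher (0.62), at adjusted p between 2.4e-05 and 0.01125 in limma, and none was below the filter limit. Their summed level on the log2 scale was 16.61 to 16.90 in cortex control, 16.00 to 16.24 in cortex exposed, 14.59 to 15.72 in hippocampus control and 14.97 to 15.30 in hippocampus exposed. That sum mostly reflects Sst, the marker with the highest values, at 16.73 and 16.40 in cortex control and 15.96 and 15.66 in cortex exposed. After exposure in cortex 3 of the 8 markers were higher and 5 lower, and 0 passed (smallest adjusted p = 0.8006 in limma). Endothelial markers followed the same order over the hippocampus arrays, with means of 8.64 and 8.69 against 8.21 and 8.35, and in all 6 of 15 marker lists did so while 1 list had the opposite order. The mean of the striatal neuron markers, of interest because Drd1 is abundant in striatum, did not: it was 6.17 and 6.26 against 5.73 and 6.36. Single striatal markers differed. Ppp1r1b had the order of Drd1, at 9.06 and 7.78 against 6.60 and 7.47. Isl1, with a mean below the filter limit, had the opposite order, at 3.29 and 3.64 against 4.21 and 4.52. The other markers of that list had neither order. This comparison of arrays was made after their values were seen, and the part of any of these cells in the Drd1 result was not tested. Since whole tissue was measured, fewer cells that express a gene and less of its RNA per cell cannot be told apart for any receptor here.

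**Figure D2:**
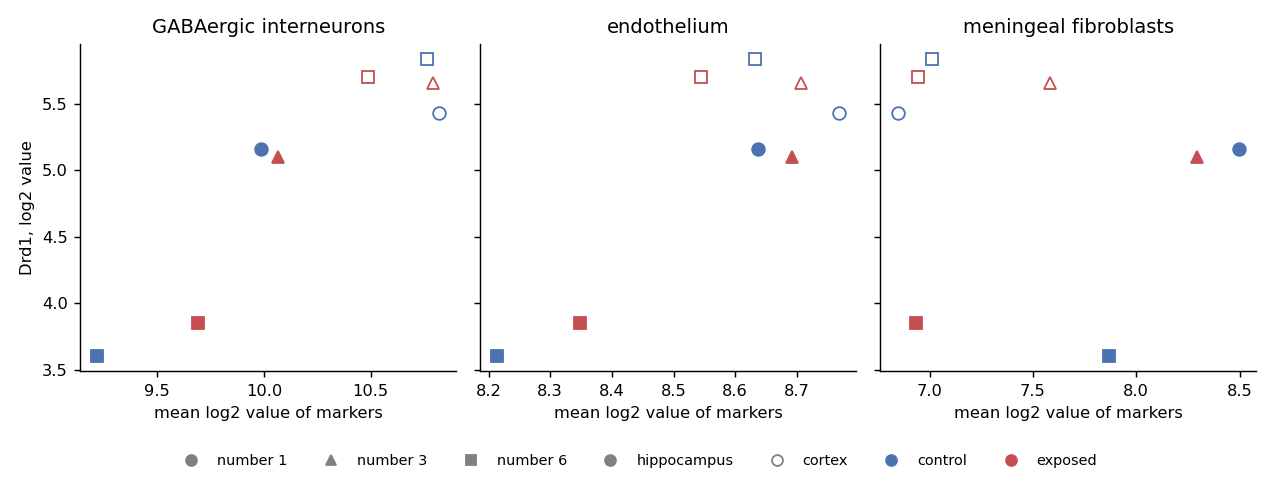
Drd1 log2 value against the mean log2 value of 3 marker lists, 1 point per array. Filled symbols are hippocampus and open symbols cortex, blue is control and red is exposed, and shape gives the array number. The hippocampus arrays numbered 6 have the lowest Drd1 values (3.60 and 3.85) and lie lower than the other hippocampus arrays in all 3 lists, which were picked for display after their values were seen.

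The D2-like receptor genes showed no tissue difference that passed. Drd2 was at 3.82 and 5.34 in cortex control, 5.47 and 4.63 in cortex exposed, 5.16 and 4.16 in hippocampus control and 5.11 and 5.07 in hippocampus exposed. The SD within cortex control alone was 1.07, and the values of both tissues overlapped. The log2 difference between the tissues was 0.06 (SE 0.35, 95% interval -0.70 to 0.82, adjusted p = 0.9131 in limma). Drd2 values under other scalings were slightly below 0 (-0.08 after quantile normalization), and its direction is not given.

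Drd4 was at 4.05 and 4.23 in cortex control, 4.11 and 4.24 in cortex exposed, 4.43 and 4.66 in hippocampus control and 4.07 and 4.85 in hippocampus exposed. Only 1 hippocampus array, exposed 3, lay within the narrow cortex range, and all 8 values were close to the filter limit. The log2 difference between the tissues was 0.35 (SE 0.23, 95% interval -0.16 to 0.85, adjusted p = 0.2801 in limma).

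Adra1b, which encodes an α1 receptor, had the largest tissue difference of the 6 genes and was higher in cortex. Its cortex values were 7.69 and 7.81 for control mice and 7.35 and 7.27 for exposed mice. Its hippocampus values were 3.93 and 4.18 for control mice and 3.71 and 4.29 for exposed mice. The hippocampus values lay on both sides of the filter limit, so Adra1b is not shown to be above background in hippocampus, while every cortex value was over 3 units above that limit. The group means were 7.75 ± 0.08 in cortex control, 7.31 ± 0.06 in cortex exposed, 4.06 ± 0.18 in hippocampus control and 4.0 ± 0.41 in hippocampus exposed (SD, n = 2 each), and the last pair did not differ beyond its spread. The measured values differed between the tissues with an adjusted p = 2.55e-07 in limma, but the size of the difference is a bound. With hippocampus values under the filter limit set to that limit, Adra1b was at least 10.9-fold higher in cortex with both arms together. This bound was at least 12.9-fold among control arrays and at least 9.17-fold among exposed arrays. The measured values gave adjusted p = 7.202e-06 among control arrays and 2.242e-05 among exposed arrays in limma, and the bounds were not tested. The filter limit is not a measured background level.

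Adra2c, which encodes an α2 receptor that inhibits transmitter release, was higher in hippocampus. It was at 5.07 and 4.95 in cortex control and 5.61 and 5.31 in cortex exposed. It was at 6.81 and 6.12 in hippocampus control and 6.27 and 6.30 in hippocampus exposed. The tissues did not overlap, and the highest value belonged to hippocampus control 1, an array high in choroid plexus genes. The group means were 6.47 ± 0.49 in hippocampus control, 6.29 ± 0.02 in hippocampus exposed, 5.46 ± 0.21 in cortex exposed and 5.01 ± 0.08 in cortex control. The difference with both arms averaged was 1.14 (SE 0.22, 95% interval 0.66 to 1.62, 2.20-fold), with an adjusted p = 0.002059 in limma, and without both choroid plexus-rich arrays it was 0.94 (adjusted p = 0.02589). In control arrays alone it was 1.46 (adjusted p = 0.006743), and it no longer passed without cortex control 6 (1.40, adjusted p = 0.05762) or without both choroid plexus-rich arrays (1.05, adjusted p = 0.1654). In exposed arrays alone it was 0.83 (adjusted p = 0.09734).

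**Figure D3:**
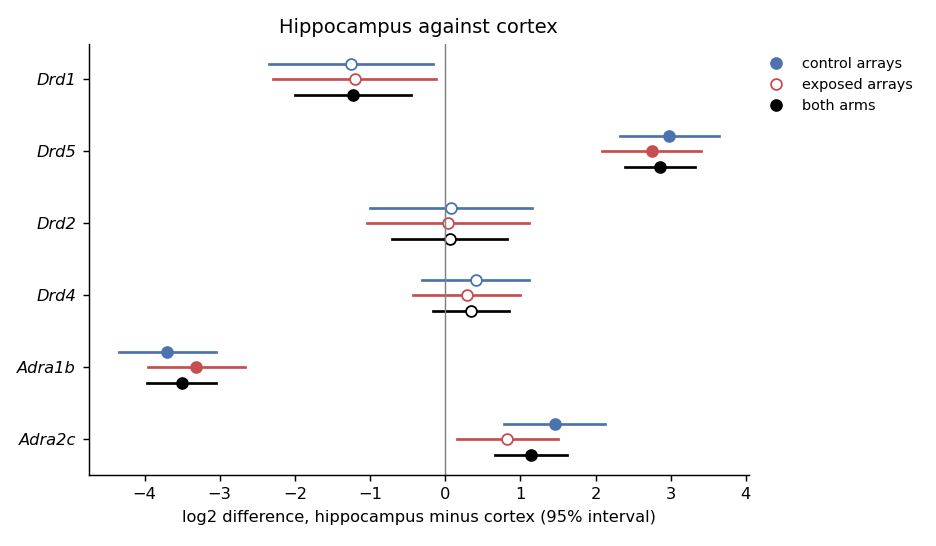
Log2 difference between hippocampus and cortex for each receptor gene, with 95% intervals from limma, in control arrays (blue), exposed arrays (red) and both arms averaged (black). Filled points have an adjusted p under 0.05. Drd5 (2.86) and Adra1b (-3.50) lie far from 0 in opposite directions in both arms, and Drd2 (0.06) lies near 0. The Adra1b points are differences of measured values, and hippocampus is near the filter limit there.

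Counted together, 4 of the 6 receptor genes passed between the tissues with both arms averaged, against 31.3% of all tested probe sets. Of all tested probe sets 19.5% were higher and 11.9% lower in hippocampus, against 2 of 6 receptor genes each way. In control arrays 3 receptor genes passed against 17.7% of probe sets, and in exposed arrays 2 passed against 14.5%. The hippocampus and cortex values of 4 genes (Drd1, Drd5, Adra1b and Adra2c) did not overlap, which held for 30.5% of all tested probe sets. In a two-sided exact permutation test of the 4 hippocampus against the 4 cortex values, groups that do not overlap always give the smallest p that 70 arrangements allow, p = 0.02857, so for these 4 genes the test adds nothing to the lack of overlap. The exact test gave p = 0.1143 for Drd4 and p = 0.8857 for Drd2. All 4 genes kept their direction and passed in limma when arrays were rescaled by quantile normalization or median centring. The median over all tested probe sets was 0.11 as deposited, 0.01 after quantile normalization and -0.04 with each array centred on its median, and the share of calls that were higher in hippocampus moved from 62.2% to 50.5% and 44.5%. For control arrays alone the same shares were 56.9%, 49.4% and 41.0%, and for exposed arrays alone they were 63.9%, 51.4% and 49.1%. The tissue difference itself did not differ between the arms past the threshold for any receptor gene, since 0% of all tested probe sets and 0 of 6 receptor genes passed the test of that difference. For Adra2c, the gene with the largest such value, the log2 difference between the arms' tissue differences was -0.63 (95% interval -1.58 to 0.32, adjusted p = 0.9983 in limma).

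Clothianidin exposure was not followed by a change that passed in any of the 6 receptor genes. In cortex 0 of 6 passed against 0.00675% of all tested probe sets (1 probe set). In hippocampus 0 of 6 passed, again against 0.00675%, and with both tissues averaged 0 of 6 passed, also against 0.00675%. At an unadjusted p under 0.05 the count of receptor genes was also 0 in all 3 comparisons, while 915, 860 and 884 probe sets reached it in cortex, hippocampus and the average.

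Adra1b and Adra2c were the genes whose cortex arms did not overlap. Both exposed cortex arrays had less Adra1b (7.35 and 7.27) than both control arrays (7.69 and 7.81), a log2 difference of -0.44 (SE 0.30, 95% interval -1.09 to 0.21, adjusted p = 0.8402 in limma). Both exposed cortex arrays had more Adra2c (5.61 and 5.31) than both control arrays (5.07 and 4.95), a log2 difference of 0.45 (SE 0.31, 95% interval -0.22 to 1.12, adjusted p = 0.8451). Arms that do not overlap were found for 38.5% of all tested probe sets in cortex, so 2 of 6 is near the background. In hippocampus the arms of all 6 receptor genes overlapped, Drd5 only at the shared value 8.01. The arms did not overlap there for 30.7% of all tested probe sets. There Adra1b differed by -0.06 (95% interval -0.70 to 0.59) and Adra2c by -0.18 (95% interval -0.85 to 0.49) on the log2 scale, and the median absolute difference over all tested probe sets was 0.22.

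Among the dopamine receptor genes, Drd2 had the largest exposure value, and it was positive in both tissues. It was 0.47 in cortex (95% interval -0.61 to 1.55) and 0.43 in hippocampus (95% interval -0.65 to 1.51), and 0.45 with both tissues averaged (SE 0.25, 95% interval -0.10 to 1.00, adjusted p = 0.839 in limma). Its cortex value ran from -0.29 to 1.23 on leaving out single arrays, being -0.29 without cortex control 1, so no direction is given. Drd5 differed by -0.01 in cortex (95% interval -0.67 to 0.64) and -0.25 in hippocampus (95% interval -0.91 to 0.41). Drd1 differed by 0.04 in cortex (95% interval -1.04 to 1.13) and 0.10 in hippocampus (95% interval -0.99 to 1.18), and Drd4 by 0.04 (95% interval -0.68 to 0.75) and -0.08 (95% interval -0.80 to 0.63). A change of 1.5-fold in at least 1 direction lies within every one of these single-tissue intervals.

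**Figure D4:**
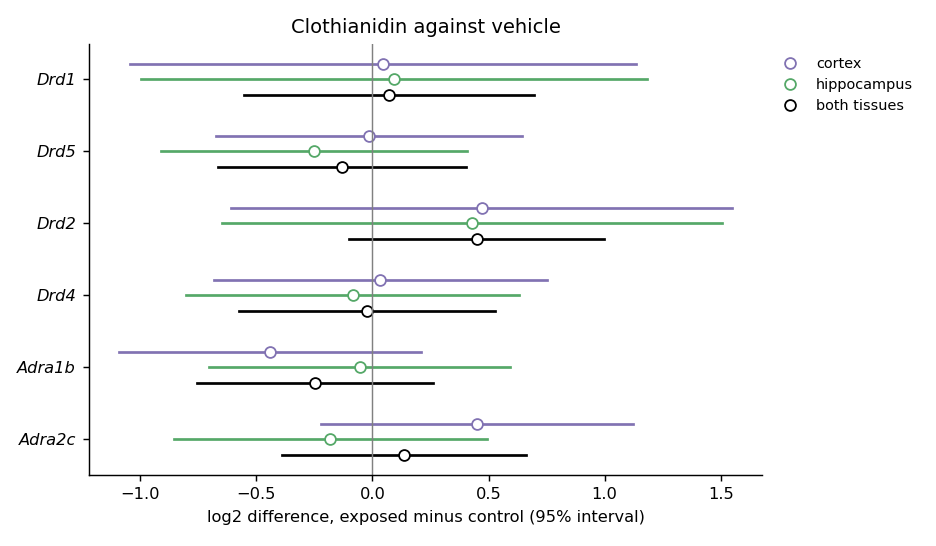
Log2 difference between exposed and control arrays for each receptor gene, with 95% intervals from limma, in cortex (purple), hippocampus (green) and both tissues averaged (black). All points are open because no adjusted p is under 0.05, and every interval includes 0.

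Enzymes and transporters of catecholamines (12 listed, 10 with a probe set) had 6 tested genes. Of these 3 passed as higher in hippocampus and 0 as lower with both arms averaged, against 19.5% and 11.9% of all tested probe sets, at a median log2 difference of 0.57 against 0.11 for all tested probe sets. Slc29a4, which encodes the low-affinity monoamine transporter PMAT, was at 5.01 to 5.81 in the 4 cortex arrays. It was at 11.58 and 10.53 in hippocampus control and at 9.88 and 9.74 in hippocampus exposed. No cortex array came near a hippocampus array, and the difference was 4.93 (SE 0.26, adjusted p = 1.056e-07 in limma). Maob, the monoamine oxidase found mainly in astrocytes, was higher by 1.10 (adjusted p = 0.005744), falling to 0.81 without both choroid plexus-rich arrays (adjusted p = 0.05234). Slc18a2, the vesicular monoamine transporter, was higher by 0.82 (adjusted p = 0.01995), and its highest adjusted p over the alternatives was 0.1576. Th and Ddc, the enzymes that make dopamine, did not pass, and Dbh, Pnmt, Slc6a2 and Slc6a3 (the enzymes that make noradrenaline and adrenaline, and the noradrenaline and dopamine transporters) were below the filter limit, at 2.20 to 3.51 in every array.

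Of 20 tested genes for G protein α subunits, adenylyl cyclases and phospholipase C β, 3 passed as higher and 5 as lower in hippocampus, against the same background of 19.5% and 11.9%, with a median log2 difference of -0.14 over all 20. Plcb4, a phospholipase C β that α1 receptors can use through Gq, was at 10.50 to 11.31 in cortex and 7.62 to 7.89 in hippocampus, in the same direction as Adra1b (log2 difference -3.08, adjusted p = 9.692e-07 in limma). Gnaq, the Gq α subunit, was higher in hippocampus by 1.02 (adjusted p = 2.689e-04), and Gna11 by 0.57 (adjusted p = 0.02954). The calcium-stimulated cyclase gene Adcy8 was lower (log2 difference -1.39, adjusted p = 2.934e-04), while Adcy9 was higher by 1.03 (adjusted p = 0.006186), or 0.71 without both choroid plexus-rich arrays (adjusted p = 0.07114). Adcy6 (-0.79), Plcb1 (-0.59) and Adcy2 (-0.50) were lower at adjusted p between 0.01441 and 0.03631. Gnas, which encodes the stimulatory subunit used by Drd1 and Drd5, did not pass (log2 difference -0.30, adjusted p = 0.2296).

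Of 20 tested receptor kinases, arrestins, protein kinase A subunits, phosphodiesterases and phosphatase inhibitors (23 listed), 1 passed as higher and 5 as lower in hippocampus, with a median log2 difference of -0.10 over all 20. Both directions together that is 6 of 20 genes against 31.3% of all tested probe sets, a share near the background. By direction, 19.5% of all tested probe sets passed as higher and 11.9% as lower, against 1 and 5 of these 20 genes. Whether they passed or not, 9 of the 20 were higher and 11 lower. The regulatory subunits of protein kinase A encoded by Prkar1b (log2 difference -1.50, adjusted p = 7.403e-06 in limma) and Prkar2b (-1.52, adjusted p = 1.803e-04) and the catalytic subunit Prkacb (-0.97, adjusted p = 7.491e-04) were lower. The other catalytic subunit, Prkaca, was higher by 0.55 (adjusted p = 0.01445), but not past the threshold with each array centred on its median or without cortex control 1. Pde7b, a cyclic AMP phosphodiesterase, and Arrb1, a β-arrestin that binds activated receptors, were lower by log2 differences of -1.68 and -0.86 (adjusted p = 0.002422 and 0.002506). The 3 tested histamine receptor genes, Hrh3 (-1.61), Hrh1 (-1.48) and Hrh2 (-1.31), were all lower in hippocampus, at adjusted p between 1.49e-05 and 0.001242 in limma. They were the 3 genes tested in a list of 8 other small-transmitter receptors, against 11.9% of all tested probe sets that passed as lower. Across the 4 lists 20 of 49 tested genes (40.8%) passed between the tissues, against 31.3% of all tested probe sets. Of these, 12 passed under every alternative tried, and 8 (Adcy2, Adcy6, Adcy9, Gna11, Maob, Plcb1, Prkaca and Slc18a2) did not pass under at least 1, where their highest adjusted p was 0.05234 to 0.2467.

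**Figure D5:**
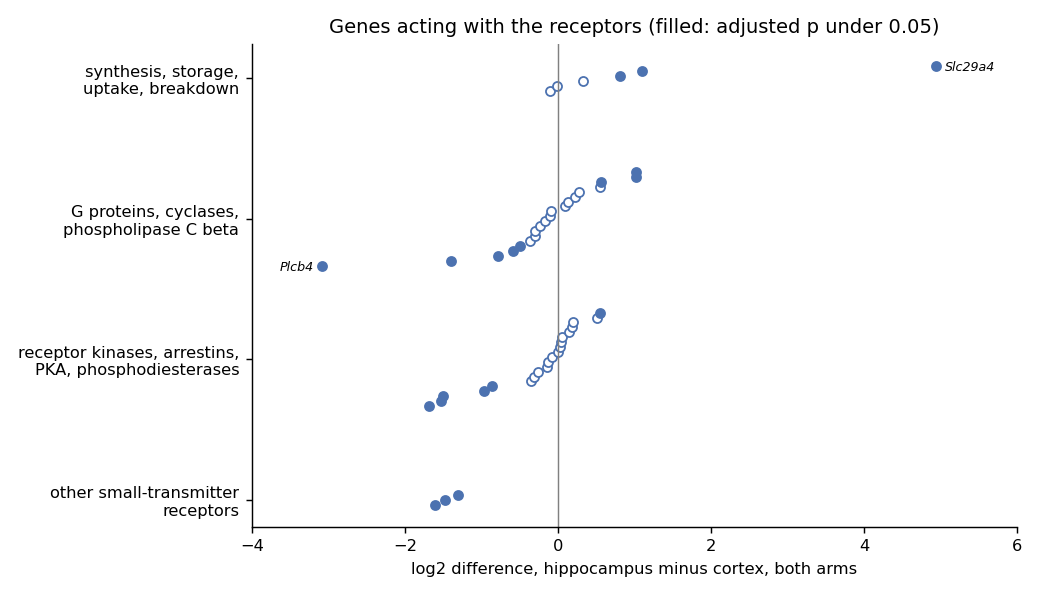
Log2 difference between hippocampus and cortex, both arms averaged, for every tested gene of the 4 lists. The tested genes of the list of other small-transmitter receptors are histamine receptor genes. The remaining lists hold genes that act with the dopamine and adrenergic receptors. Each point is 1 gene, filled points have an adjusted p under 0.05 in limma, and vertical position within a list only spreads the points. Slc29a4 (4.93) and Plcb4 (-3.08) lie farthest from 0.

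After exposure 0 genes of these 4 lists passed in either tissue. Slc29a4 had the smallest unadjusted p of its list in hippocampus, with a log2 difference of -1.25 (adjusted p = 0.7688 in limma), and -0.72 without hippocampus control 1, the choroid plexus-rich array in which it was highest. Maob differed there by -0.95 (adjusted p = 0.8226), and by -0.44 without that array and cortex control 6. Adcy6 (0.68, adjusted p = 0.8474) and Pde4b (0.63, adjusted p = 0.8226 in limma) had the smallest unadjusted p of their lists in hippocampus and were higher. In each of these lists 11 genes were higher and 9 lower there. In cortex Pde7b (-1.07), Hrh2 (-0.74) and Prkaca (-0.62) had the lowest values among the genes given above, at adjusted p between 0.7397 and 0.8006 in limma. Gnaz, a G protein α subunit gene of the lists not given above, was at -0.705 there (adjusted p = 0.7844 in limma). The list medians in cortex were -0.23 for catecholamine enzymes and transporters, -0.03 for G proteins and their effectors, -0.18 for kinases and phosphodiesterases and -0.52 for the 3 histamine receptor genes, against -0.03 for all tested probe sets. In hippocampus they were -0.12, 0.03, 0.03 and 0.03, against 0.01.

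For each receptor gene, the 3 other named genes with the most similar values over the 8 arrays were found by Pearson's r, as a description that mostly reflects the shared tissue contrast. For Drd5 they were Palmd (r = 0.997), Chrm5, a muscarinic acetylcholine receptor gene (0.997), and Kdm5b, a histone demethylase gene (0.996). For Adra1b they were Chn2 (0.996), Cntn3 (0.996) and Tlcd4 (0.995). For Adra2c they were Acadvl (0.978), D830013O20Rik (0.977) and Hsd11b1, which encodes an enzyme that regenerates glucocorticoids (0.975). Drd1 was most like Plp2 (0.989), Crb3 (0.976) and Prdx4 (0.975). Drd2 was most like Zfp207 (0.959), Vstm2l (0.936) and Tfpt (0.934), genes with equal means in the tissues to within 0.11. Drd4 was most like Soga1 (0.974), Ckap2 (0.956) and Itga6 (0.951). Among the receptor genes themselves, Drd5 and Adra1b were the most opposed (r = -0.976), and Drd5 and Adra2c the most alike (r = 0.882), over 8 arrays that share the same tissue split.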

How the data were processed

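Total RNA was amplified, labelled and hybridised to 1-colour Affymetrix arrays, per the labels' protocols. The authors deposited 1 log2 value per probe set, made with RMA per the submitters' processing notes; the version is not given in the sources used here, and the log base, which no header states, is assumed to be 2 from what RMA usually writes and from values that run from 1.59 to 19.93. No detection values were used, so no level is shown to be above background. Precision is limited by how few arrays there are.

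Groups were taken from sample titles. GEO's platform annotation gave 19572 of 22206 probe sets 1 gene symbol and 2634 none. Probe sets in the lowest 33.3% by mean were left out, and the rest were fitted with limma 3.58.1 in R 4.3.3 (lmFit on the 4 groups, eBayes with trend), which left 4 residual degrees of freedom and added 7.92 from the prior. Exposure averaged over tissues was fitted to the 4 means of arrays of 1 arm and number, 2 per arm. P-values are two-sided with Benjamini-Hochberg adjustment over 14804 probe sets, and the fits were tested on simulated data. All receptor genes are named with every value, with the 3 genes most like each; of each list, genes that passed and up to 4 with the smallest p. The lists held 175 genes, 18 of them without a named probe set. The receptor genes and lists were chosen with earlier results of these data known. Alternatives were no filter or a filter of 50%, quantile normalization, median centring, no trend, array weights, single arrays left out, both choroid plexus-rich arrays left out, the compared groups only, a replicate block, and 8 single arrays for the average.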

Additional observations from a re-analysis of the deposited data

How the results depend on the processing

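Across all alternatives tried, the tissue differences of Drd5 (2.71 to 3.02), Adra1b (-3.65 to -3.36, measured values) and Adra2c (0.94 to 1.31) with both arms averaged kept their direction and passed. Drd1 kept its direction (-1.62 to -0.84) and passed in 10 of 15. Under a filter that removed the lowest 50%, Drd1, Drd2 and Drd4 were not tested, and the averaged exposure comparison has no value without both choroid plexus-rich arrays, since both control means then go.

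Drd2 between the tissues turned to -0.0737 in control, -0.0812 in exposed and -0.0775 in both arms after quantile normalization, and to -0.08, -0.10 and -0.09 with arrays centred on their medians. Without both choroid plexus-rich arrays, exposure gave 0.12 for Drd5 in cortex and 0.17 for Adra2c in hippocampus. The causes were not tested.

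On leaving out single arrays, exposure in cortex ran from -0.16 to 0.25 for Drd1, -0.29 to 1.23 for Drd2, -0.055 to 0.125 for Drd4 and -0.33 to 0.30 for Drd5. In hippocampus it ran from -0.69 to 0.88 for Drd1, -0.07 to 0.93 for Drd2, -0.48 to 0.31 for Drd4, -0.35 to 0.24 for Adra1b and -0.53 to 0.17 for Adra2c. Averaged over the tissues it ran from -0.23 to 0.37 for Drd1, -0.25 to 0.20 for Drd4, -0.36 to 0.09 for Drd5 and -0.0675 to 0.3375 for Adra2c. The difference between the tissues' exposure effects ran from -0.73 to 0.83 for Drd1, -0.80 to 0.72 for Drd2, -0.51 to 0.27 for Drd4 and -0.545 to 0.075 for Drd5. The tissue difference of Drd2 ran from -0.68 to 0.84 in control, -0.38 to 0.46 in exposed and -0.32 to 0.44 in both arms, and that of Drd4 in exposed arrays from -0.11 to 0.68.

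The number of probe sets passing for exposure in cortex was 0 after quantile normalization or without the trend, 2 with array weights, with the compared groups only or with a random replicate block, 3 without both choroid plexus-rich arrays, and 0 to 2 on leaving out single arrays. In hippocampus it was 0 after quantile normalization, without the trend, with array weights, with the compared groups only and without both choroid plexus-rich arrays, and 0 to 56 on leaving out single arrays. It was 0 with 8 single arrays and 1 to 26 on leaving out arrays for the average, and 0 to 30 for the difference between tissues. Between the tissues it was 1155 in control without both choroid plexus-rich arrays, and 1289 to 2532 in control and 1074 to 2440 in exposed arrays on leaving out single arrays, where fewer samples enter the fit.

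Deviations of same-numbered arrays of the tissues correlated at r of -9e-04 in control and 0.2761 in exposed mice. The control value includes both choroid plexus-rich arrays, which differ in number between the tissues, so it cannot show whether pairing is absent. With a random replicate block the consensus correlation was 0.19. The main fit of the tissue comparisons was made without pairing by number. The averaged exposure comparison still counted each arm and number once, because its arrays may share an animal. With arm and number as a replicate block, 3433, 2835 and 5502 probe sets passed between the tissues in control, exposed and both arms, 1 for the difference between exposure effects, and 3, 2 and 4 receptor genes, as without the block.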
